A study of Mus musculus with 6 samples.

Results

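The chromosomal passenger complex and the microtubule-binding layer of the kinetochore were followed through 10 genes in testes of KIFC1 knockout (KO) and wild-type (WT) mice. Their Ensembl identifiers were matched to GENCODE mouse release M21 by name, and all 10 were found among 51826 genes. The testes came from C57BL/6J mice of 8 weeks, and bulk RNA was sequenced in 3 KO and 3 WT samples. KIFC1 is a minus-end-directed kinesin-14 motor that gathers and focuses spindle microtubules, and the series places it in meiotic recombination and male fertility. The labels name neither the allele nor any driver of the knockout. Nor do they tie each sample to its own animal, and the p-values here rest on differences among samples that could be technical repeats.

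Chromosomes attach to spindle microtubules through kinetochores, protein assemblies built on centromeric chromatin. The NDC80 complex of the outer kinetochore grips the microtubule, the fibrous corona around it captures microtubules from the side, and the chromosomal passenger complex, a kinase bound to a scaffold and its targeting subunits, phosphorylates the outer kinetochore to release faulty attachments. In spermatocytes the kinase AURKC works beside the mitotic AURKB, and MEIKIN marks kinetochores of the first meiotic division, when sister kinetochores act together.

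Of the 10 genes, 0 rose and 0 fell in KO testes (edgeR quasi-likelihood test, Benjamini-Hochberg adjusted p under 0.05 over 21518 genes tested), against 8.23% of all genes tested. By the same edgeR test, 1 of them was higher in KO at an unadjusted p under 0.05, as were 12.1% of all genes tested, and 3 were lower, as were 15% of all genes tested. The DESeq2 Wald test called 1 of the 10, Cenpe, at an adjusted p of 0.0195, where it called 15.4% of all genes. All 10 passed the filter on low counts, with 274 to 4690 counts per library. The passenger complex was uneven: its kinases and its targeting subunits Birc5 and Cdca8 had lower means in KO, while its scaffold Incenp had a higher one. Of the corona genes, Cenpe and Cenpf had higher means in KO, and Meikin differed least of the 10.

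Library totals ran from 32129093 to 38169198 counts in KO and from 29274603 to 38703606 in WT. Levels are given as CPM, read counts scaled by TMM to a common library size, and a log2 fold change is KO over WT. Kifc1 itself stood at 0.282 to 0.737 CPM in KO and 14.7 to 16.1 CPM in WT. Mitochondrial genes held 1.54% to 5.74% of counts in KO libraries and 0.661% to 0.935% in WT libraries. The log2 fold change of 12751 genes (not independent of each other) correlated with their exon GC content at a Spearman rho of -0.52. In each library, the deviation of log2 CPM from the gene's mean was also set against GC content. That rho was -0.28, -0.68 and -0.13 in KO samples 1, 2 and 3 and 0.27, 0.53 and 0.53 in WT samples 1, 2 and 3. A second fit is therefore given beside the first, in which the GC and exon length trends of each library were removed. It called 0 of the 10 genes, against 0.0837% of all genes. At an unadjusted p under 0.05, 2 of them (Incenp and Cenpe) were higher in that fit, as were 11.4% of all genes, and 1 (Birc5) was lower, as were 10.9%. In such bulk RNA, fewer cells of a type and less RNA per cell cannot be told apart.

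**Figure D1:**
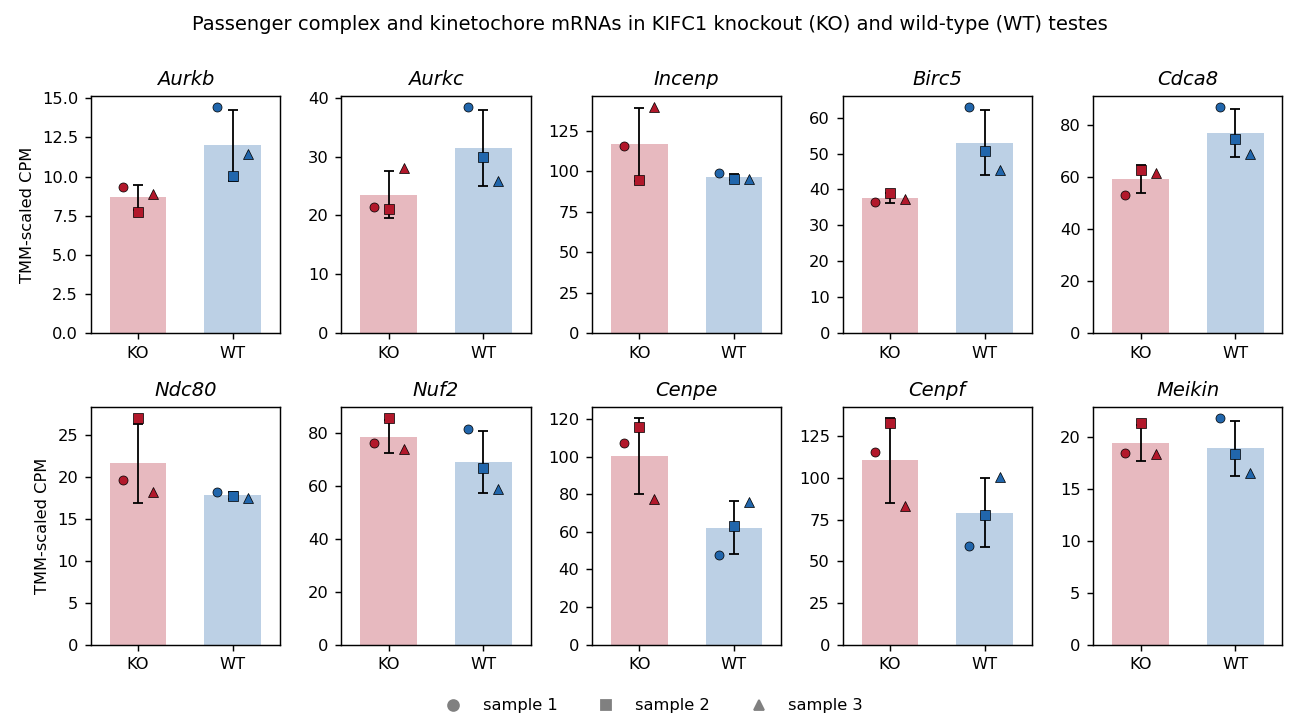
Level of each gene in every sample, in TMM-scaled CPM on a linear axis from 0, with KO left of WT, bars for means and error bars for the SD of 3 samples. Birc5 lay between 36.6 and 39.0 CPM in KO and between 45.3 and 63.0 CPM in WT.

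Promoter sequence is shown for 3 genes: Birc5, which had the most negative log2 fold change of the 10, and the corona genes Cenpe and Cenpf, which had the most positive in the first fit. Each run is the 250 bases before the RefSeq transcript start on GRCm38.p6, written 5′ to 3′ on the strand of the gene, and lies at chr11:117848987-117849236 (plus strand), chr3:135212313-135212562 (plus strand) and chr1:189688087-189688336 (minus strand). Capitals mark CCAAT, the element bound by the factor NF-Y, and AACNGT, a core of the MYB family element, on either strand.
Birc5: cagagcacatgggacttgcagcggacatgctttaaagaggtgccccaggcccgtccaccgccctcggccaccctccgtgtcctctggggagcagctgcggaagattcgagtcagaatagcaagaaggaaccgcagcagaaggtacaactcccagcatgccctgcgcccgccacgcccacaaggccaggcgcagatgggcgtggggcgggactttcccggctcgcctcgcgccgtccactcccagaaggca
Cenpe: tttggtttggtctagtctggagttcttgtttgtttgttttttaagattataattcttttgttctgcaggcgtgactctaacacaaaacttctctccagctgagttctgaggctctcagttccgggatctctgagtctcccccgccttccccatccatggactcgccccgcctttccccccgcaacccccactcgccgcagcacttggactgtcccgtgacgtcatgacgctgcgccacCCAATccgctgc
Cenpf: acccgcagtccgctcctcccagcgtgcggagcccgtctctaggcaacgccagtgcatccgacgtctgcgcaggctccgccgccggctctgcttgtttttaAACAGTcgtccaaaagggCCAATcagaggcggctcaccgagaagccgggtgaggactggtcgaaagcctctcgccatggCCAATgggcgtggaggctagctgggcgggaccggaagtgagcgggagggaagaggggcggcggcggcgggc

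RefSeq promoter windows of 300 bases, reaching 50 bases past the start, were matched for 7 of the 10 genes. CCAAT was found on either strand in 4 of the 7 (Cenpf, Cenpe, Cdca8 and Aurkc) and in 37.4% of all 32851 windows. AACNGT was found in 4 of the 7 (Nuf2, Cenpf, Cdca8 and Aurkc) and in 26.1% of all windows. TTTGAA, a form of the cell cycle genes homology region, was found in 3 of the 7 (Cenpf, Cdca8 and Ndc80), each time past the start, and in 17.9% of all windows, while TTCGAA, its other form searched, was in 0 of the 7 and in 1.56% of all windows. Before the RefSeq start, none of the motifs lay in the Birc5 run, 1 CCAAT in the Cenpe run and 2 in the Cenpf run. Cdca8, whose mean was lower in KO, held 3 CCAAT. RefSeq starts can differ from the gene spans given below, which are from GENCODE M21. The Cenpe span begins at 135212537, so the end of its run, with the CCAAT, lies inside the gene. The Cdca8 run (chr4:124936918-124937167, minus strand) lies wholly inside its span of 124918465 to 124939311.

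The kinases of the passenger complex had lower means in KO testes. Aurkb encodes the kinase that serves the complex in mitosis and meiosis (ENSMUSG00000020897, chromosome 11, 69045647 to 69051664, plus strand, mm10, protein-coding). It had 9.34, 7.77 and 8.92 CPM in KO samples 1, 2 and 3, against 14.4, 10.1 and 11.5 CPM in WT samples 1, 2 and 3. All 3 KO samples lay below all 3 WT samples. The means were 8.68 ± 0.815 CPM in KO and 12.0 ± 2.24 CPM in WT (SD, n = 3 each), and the log2 fold change was -0.47 (SE 0.20, edgeR adjusted p = 0.179). With the GC and length trends removed it was -0.28 (SE 0.19, edgeR adjusted p = 0.419), and the groups then overlapped.

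Aurkc encodes the germ cell paralog of that kinase (ENSMUSG00000070837, chromosome 7, 6995300 to 7003091, plus strand). It had 21.4, 21.1 and 28.1 CPM in KO and 38.4, 30.0 and 25.8 CPM in WT. KO sample 3 lay above WT sample 3, so the groups overlapped. The means were 23.6 ± 3.97 CPM in KO and 31.4 ± 6.43 CPM in WT, and the log2 fold change was -0.42 (SE 0.20, edgeR adjusted p = 0.227), or -0.16 (SE 0.16, edgeR adjusted p = 0.585) with the trends removed. Of the distinct stretches of 75 bases in annotated Aurkc transcripts, 43.3% also occur in transcripts of 8 pseudogenes, which held 106 to 162 counts in all in KO libraries and 77 to 153 in WT libraries. How reads that map to several places were treated is not given in the sources used here, so the level of Aurkc is uncertain.

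Incenp, the scaffold that binds and activates the kinases, stood apart in sign from the rest of the complex (ENSMUSG00000024660, chromosome 19, 9872296 to 9899551, minus strand). It had 116, 94.6 and 139.6 CPM in KO and 98.8, 95.2 and 95.1 CPM in WT. KO samples 1 and 3 were above every WT sample, and KO sample 2 was below every WT sample. The means were 117 ± 22.5 CPM in KO and 96.4 ± 2.13 CPM in WT, and the log2 fold change was 0.27 (SE 0.17, edgeR adjusted p = 0.32). With the trends removed its levels were 124, 113 and 145 CPM in KO and 94.9, 85.0 and 83.7 CPM in WT, and the groups no longer overlapped. The log2 fold change was then 0.53 (SE 0.14, edgeR adjusted p = 0.0901, unadjusted p = 0.00423). Without KO samples 1 and 3, which held the highest mitochondrial shares, it was -0.021 as counted. It was 0.14 as counted without KO sample 3 alone and 0.41 without KO sample 2.

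Birc5 encodes survivin, the subunit that reads phosphorylated histone H3 at centromeres (ENSMUSG00000017716, chromosome 11, 117849251 to 117855743, plus strand). It had 36.6, 39.0 and 37.3 CPM in KO and 63.0, 50.7 and 45.3 CPM in WT. All KO samples were lower than all WT samples, and the KO samples lay close together. The means were 37.6 ± 1.28 CPM in KO and 53.0 ± 9.05 CPM in WT, and the KO level was 0.71 of WT in the fit (95% interval 0.549 to 0.918). The log2 fold change was -0.49 (SE 0.16, edgeR adjusted p = 0.0944). It was -0.53 (SE 0.15, edgeR adjusted p = 0.102) with the trends removed, where the groups still did not overlap.

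Cdca8 encodes borealin, which with survivin joins INCENP in a bundle that targets the complex (ENSMUSG00000028873, chromosome 4, 124918465 to 124939311, minus strand). It had 53.0, 62.7 and 61.6 CPM in KO and 86.8, 74.5 and 68.9 CPM in WT, again with no overlap. The means were 59.1 ± 5.30 CPM in KO and 76.7 ± 9.16 CPM in WT, and the log2 fold change was -0.38 (SE 0.15, edgeR adjusted p = 0.155), or -0.34 (SE 0.16, edgeR adjusted p = 0.241) with the trends removed, also without overlap. Its span overlaps the gene 9930104L06Rik on the other strand, and the strand setting of the counting is not given in the sources used here.

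In all, 3 of the 10 genes (Aurkb, Birc5 and Cdca8) were lower in every KO sample than in every WT sample, as were 18.1% of the genes tested, and 1 (Cenpe) was higher in every KO sample, as were 14.6%. Once the trends were removed these counts were 2 (Birc5 and Cdca8), against 14.5% of genes, and 1 (Incenp), against 13% of genes. Without WT sample 1, which had the highest level of all 4, the log2 fold changes were -0.29 for Aurkb, -0.22 for Aurkc, -0.33 for Birc5 and -0.25 for Cdca8.

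The ratio of Aurkc to Aurkb, as counts per kilobase of exon, overlapped between the groups, and it carries the uncertainty of the Aurkc counts. Aurkc exceeded Aurkb by a log2 ratio of 2.15, 2.39 and 2.61 in KO and 2.36, 2.53 and 2.12 in WT. The KO minus WT difference of the means was 0.046 (exact two-sided permutation test, p = 0.7, where 3 against 3 samples cannot go below 0.1). Its sign turned without KO sample 3 (-0.067) or without WT sample 3 (-0.063).

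The scaffold stood higher relative to its targeting subunits in KO, in ratios chosen after their values were seen and given without a test. Incenp exceeded Cdca8 by a log2 ratio per exon kilobase of 1.38, 0.85 and 1.44 in KO and 0.45, 0.61 and 0.72 in WT. Incenp exceeded Birc5 by 1.31, 0.93 and 1.56 in KO and 0.30, 0.56 and 0.72 in WT. In both ratios each KO library lay above each WT library, with KO sample 2 nearest to WT. With the trends removed, the KO minus WT difference was 0.86 for Incenp to Cdca8 and 1.04 for Incenp to Birc5, against 0.63 and 0.74 as counted. As counted, Birc5 and Cdca8 stayed near parity, with log2 ratios of 0.069, -0.077 and -0.12 in KO and 0.14, 0.051 and 0.0017 in WT. With the trends removed these were 0.068, -0.15 and -0.15 in KO and 0.0996, 0.0977 and 0.103 in WT. The groups then no longer overlapped, and the KO minus WT difference was -0.18, against -0.11 as counted.

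**Figure D2:**
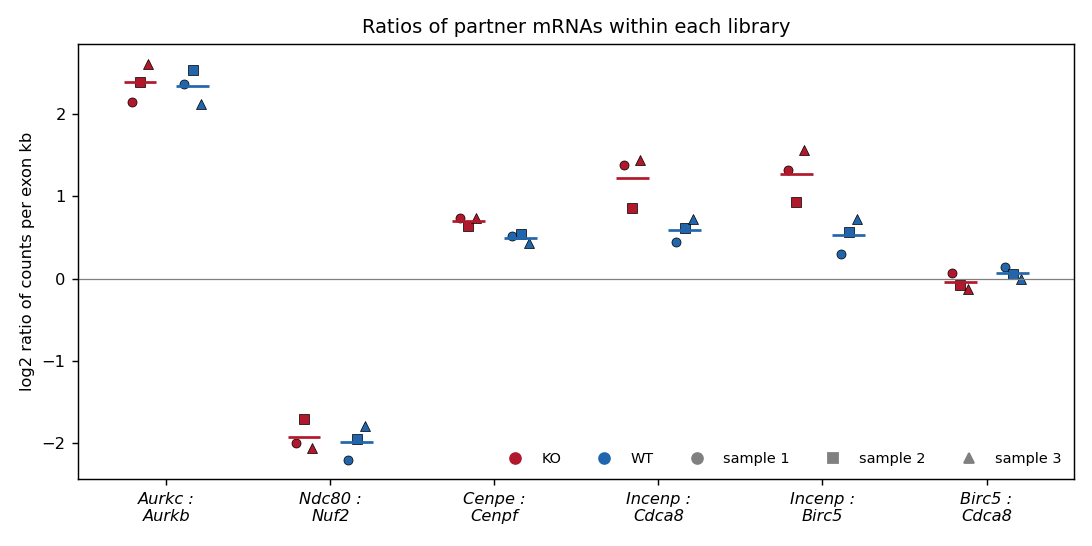
Log2 ratio of partner mRNAs per exon kilobase in each library, with a point for each sample, a line for the group mean, and KO left of WT within each ratio. As counted, the ratios of Incenp to Cdca8 and to Birc5 and of Cenpe to Cenpf do not overlap between groups, whereas Aurkc to Aurkb, Ndc80 to Nuf2 and Birc5 to Cdca8 do.

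The microtubule-binding dimer of the outer kinetochore overlapped between groups. Ndc80, which encodes the subunit that gives the complex its name (ENSMUSG00000024056, chromosome 17, 71496100 to 71526857, minus strand), had 19.7, 27.0 and 18.2 CPM in KO and 18.3, 17.7 and 17.5 CPM in WT. KO sample 2 was well above the other 5 samples, which lay together. The means were 21.7 ± 4.73 CPM in KO and 17.8 ± 0.399 CPM in WT, and the log2 fold change was 0.28 (SE 0.19, edgeR adjusted p = 0.378). It was 0.090 without KO sample 2 and 0.051 (SE 0.17, edgeR adjusted p = 0.887) with the trends removed. Nuf2, its partner in the dimer (ENSMUSG00000026683, chromosome 1, 169497934 to 169531464, minus strand), had 76.5, 85.8 and 74.2 CPM in KO and 81.8, 66.8 and 59.0 CPM in WT. WT sample 1 lay among the KO samples. Its means were 78.8 ± 6.15 CPM in KO and 69.2 ± 11.6 CPM in WT. The log2 fold change was 0.19 (SE 0.16, edgeR adjusted p = 0.495) as counted and -0.076 (SE 0.16, edgeR adjusted p = 0.814) with the trends removed. It was 0.35 without WT sample 1 and 0.084 without WT sample 3 as counted. Removing the trends turned its sign, and the interval of the KO to WT ratio then ran from 0.74 to 1.22.

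Although NDC80 and NUF2 are partners in the protein complex, Ndc80 mRNA stood below Nuf2 mRNA in every library, at 0.251, 0.308 and 0.240 of it per exon kilobase in KO and 0.218, 0.259 and 0.290 in WT. The log2 ratio differed by 0.061 between groups (KO minus WT, exact two-sided permutation test, p = 0.8), and this turned to -0.048 without KO sample 2 and -0.049 without WT sample 1.

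As counted, the corona genes had the most positive fold changes of the 10. With the trends removed, Incenp had the most positive, with a log2 fold change of 0.53. Cenpe encodes CENP-E, a plus-end-directed kinesin that carries chromosomes along microtubules (ENSMUSG00000045328, chromosome 3, 135212537 to 135273611, plus strand). It had 107, 116 and 77.6 CPM in KO and 47.6, 63.1 and 75.6 CPM in WT. All KO samples were above all WT samples, although KO sample 3 and WT sample 3 nearly met. The means were 100.3 ± 20.1 CPM in KO and 62.1 ± 14.0 CPM in WT, or a KO level 1.61 times that of WT in the fit (95% interval 1.15 to 2.26). The log2 fold change was 0.69 (SE 0.22, edgeR adjusted p = 0.0807), and 0.43 (SE 0.18, edgeR adjusted p = 0.196) with the trends removed, where the groups overlapped.

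Cenpf encodes CENP-F, a large coiled-coil protein of the corona that links kinetochores to dynein regulators (ENSMUSG00000026605, chromosome 1, 189640606 to 189688086, minus strand). It had 116, 133 and 83.1 CPM in KO and 59.3, 77.8 and 101 CPM in WT. KO sample 3 fell among the WT samples, and in both corona genes KO sample 2 was the highest and WT sample 1 the lowest. The means were 111 ± 25.3 CPM in KO and 79.3 ± 20.7 CPM in WT, and the log2 fold change was 0.48 (SE 0.23, edgeR adjusted p = 0.226), or 0.16 (SE 0.18, edgeR adjusted p = 0.635) with the trends removed.

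The ratio of Cenpe to Cenpf differed more evenly than either level. Cenpe exceeded Cenpf per exon kilobase by a log2 ratio of 0.73, 0.64 and 0.74 in KO and 0.52, 0.54 and 0.43 in WT. Every KO library lay above every WT library, with a difference of 0.21 (KO minus WT, exact two-sided permutation test, p = 0.1, the smallest that 3 against 3 samples allow). The difference was 0.28 with the trends removed and between 0.17 and 0.24 with any single sample left out. Both genes have like exon GC content, at 43.4% for Cenpe and 43.2% for Cenpf.

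Summed markers of leptotene and zygotene spermatocytes, the early cells of meiotic prophase, were highest in the same 2 KO samples as the corona genes. The summed level of their 7 markers was 512, 567 and 378 CPM in KO samples 1, 2 and 3, against 276, 286 and 309 CPM in WT samples 1, 2 and 3, with 2 of 7 higher and 0 lower by the edgeR test. Sycp1 and Sycp2 held 124 and 241 CPM of the sum in KO sample 1. KO samples 1 and 2 also had the most negative GC trends of the libraries. Not all markers followed the sum. Dmc1 was highest in WT sample 3, at 15.3 CPM, against 9.59 and 12.6 CPM in KO samples 1 and 2. Prdm9 had 8.35 CPM in WT sample 3, above 6.95 CPM in KO sample 2. The 7 markers of pachytene and later spermatocytes summed to 1917 to 2117 CPM in KO and 1949 to 2199 CPM in WT, with 1 higher and 1 lower of 7 by the edgeR test. The 7 spermatogonial markers summed to 91.1 to 105 CPM in KO and 86.5 to 109 CPM in WT, with 0 higher and 1 lower by the edgeR test. The 6 round spermatid markers summed to 825, 755 and 1049 CPM in KO and 680, 654 and 582 CPM in WT, with 0 of 6 called by edgeR and 3 higher at an unadjusted p under 0.05, as were 12.1% of all genes tested. The 6 elongating spermatid markers summed to 18165, 12724 and 21129 CPM in KO and 18992, 17473 and 18786 CPM in WT, with 1 higher and 2 lower by the edgeR test and a median log2 fold change of -0.54, or 0 called and -0.24 with the trends removed. The marker lists of 4 of these 5 germ cell stages thus held genes that passed the test, and those of the pachytene and elongating stages passed in both directions. Of all genes tested, 3.11% were higher and 5.12% lower by that test. With the trends removed, 0 markers were called in each of these 5 lists, against 0.0837% of all genes. At an unadjusted p under 0.05 in that fit, 4 of 6 round spermatid and 0 of 7 leptotene and zygotene markers were higher. The spermatogonial list had 1 higher, the pachytene list 1 lower and the elongating list 1 of each. Of all genes, 11.4% were higher and 10.9% lower. The median log2 fold change of the leptotene and zygotene markers was then 0.15, against 0.44 as counted. The part of these cells in the levels of Cenpe and Cenpf was not tested.

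Somatic markers also differed between libraries. WT sample 1, the highest of all samples for Aurkb, Aurkc, Birc5 and Cdca8, had the lowest sums of Sertoli, Leydig, myoid, macrophage and endothelial markers. The 7 Sertoli cell markers summed to 1612, 1023 and 1335 CPM in KO and to 723, 1057 and 1011 CPM in WT, and the 6 Leydig cell markers to 1509, 973 and 1099 CPM in KO and to 597, 1299 and 1163 CPM in WT. Of all markers in these 5 somatic lists, 1 rose by the edgeR test, a Sertoli cell marker, as did 3.11% of all genes tested. Every one reached 1 CPM in some library. At an unadjusted p under 0.05, 4 of 7 Sertoli, 2 of 6 Leydig and 1 of 5 macrophage markers were higher in KO and 0 were lower. Of all genes tested, 12.1% were higher and 15% lower at that p. With the trends removed, 4 Sertoli, 2 Leydig, 1 macrophage, 1 myoid and 2 endothelial markers were higher and 0 lower at that p. The shares of all genes were then 11.4% higher and 10.9% lower. All 7 Sertoli and all 6 Leydig markers had positive log2 fold changes in that fit. The part of somatic cells in the levels of the passenger complex was not tested.

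Meikin encodes the germ cell protein that recruits Polo-like kinase to kinetochores in the first meiotic division (ENSMUSG00000020332, chromosome 11, 54370652 to 54426790, plus strand). It had 18.5, 21.4 and 18.4 CPM in KO and 21.8, 18.3 and 16.5 CPM in WT, with full overlap of the groups. The means were 19.4 ± 1.70 CPM in KO and 18.9 ± 2.68 CPM in WT. The log2 fold change was 0.039 (SE 0.17, edgeR adjusted p = 0.912) as counted and -0.019 (SE 0.14, edgeR adjusted p = 0.95) with the trends removed. The interval of the KO to WT ratio ran from 0.781 to 1.35 as counted and from 0.793 to 1.23 with the trends removed. Its span also overlaps the processed pseudogene Gm12226, which was itself tested, so its counts are uncertain.

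**Figure D3:**
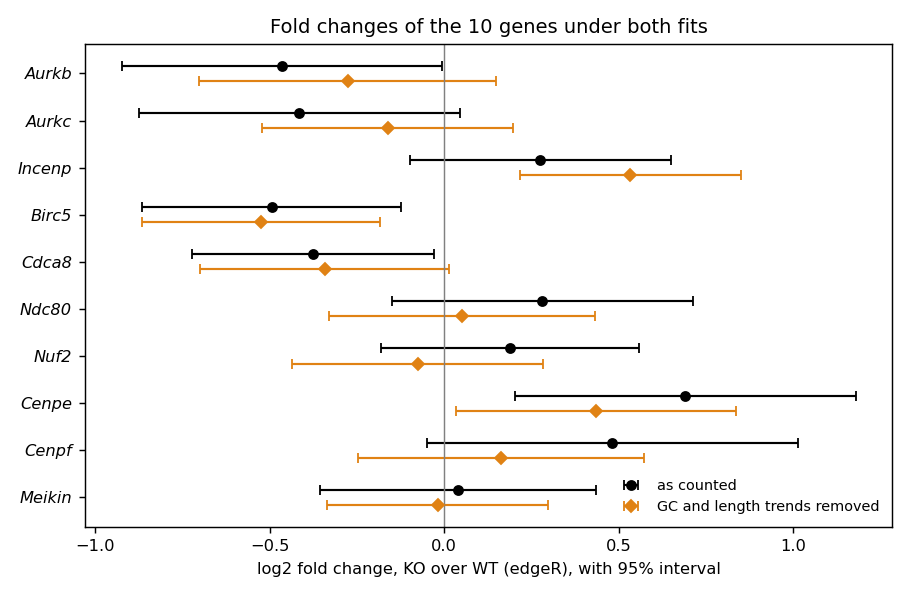
Log2 fold change of each gene, KO over WT, by edgeR, with 95% intervals, as counted (black circles) and with the GC and length trends removed (orange diamonds). Birc5 and Cenpe have intervals that leave out 0 in both fits, Aurkb and Cdca8 only as counted, and Incenp only with the trends removed.

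Levels could be ordered between genes only per length. In WT testes the order of mean CPM per exon kilobase was Incenp (22.3 ± 0.493), Aurkc (20.6 ± 4.22), Birc5 (15.6 ± 2.66), Cdca8 (14.8 ± 1.77), Meikin (12.4 ± 1.76), Nuf2 (10.9 ± 1.83), Cenpe (7.21 ± 1.63), Cenpf (5.14 ± 1.34), Aurkb (4.07 ± 0.761) and Ndc80 (2.74 ± 0.0615). Neighbours in that order overlapped in their samples except Nuf2 over Cenpe and Aurkb over Ndc80. In KO testes Incenp stood first at 26.9 ± 5.19 CPM per exon kilobase, apart from Aurkc at 15.5 ± 2.60. From Aurkc down to Birc5 at 11.1 ± 0.375, each of the KO neighbours overlapped the next, and Cenpe at 11.6 ± 2.34 stood among them. Cenpf (7.17 ± 1.64), Ndc80 (3.33 ± 0.728) and Aurkb (2.95 ± 0.277) were the lowest in KO.

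Ndc80, Nuf2, Cenpe, Cenpf, Aurkb and Aurkc shared the sign of genes of like GC content, and Incenp did not. For Birc5 and Cdca8 such genes had medians near 0, and both genes lay below those medians. Ndc80, Nuf2, Cenpe and Cenpf have 42.1% to 43.4% GC in their exons, and genes within 1 percentage point of each had median log2 fold changes of 0.22 to 0.25. Aurkb and Aurkc have 51.8% and 52.1% GC, and genes of like GC content had medians of -0.17 and -0.19. Incenp has the highest GC content of the 10, at 53.8%, and a log2 fold change of 0.27 where 1280 genes of like GC content had a median of -0.28. Birc5 and Cdca8, at 47.9% and 49.2% GC, had -0.49 and -0.38 where genes of like GC content had medians of 0.015 and -0.044. The 10th percentile of those genes was -0.50 for Birc5, and the 90th percentile was 0.29 for Incenp and 0.76 for Cenpe. Each of these 3 genes thus lay close to the edge of the range that held 8 in 10 genes of like GC content, and inside it. Cdca8 lay further inside that range, where the 10th percentile was -0.56. Meikin, at 45.7% GC, had 0.039 where genes of like GC content had a median of 0.13.

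**Figure D4:**
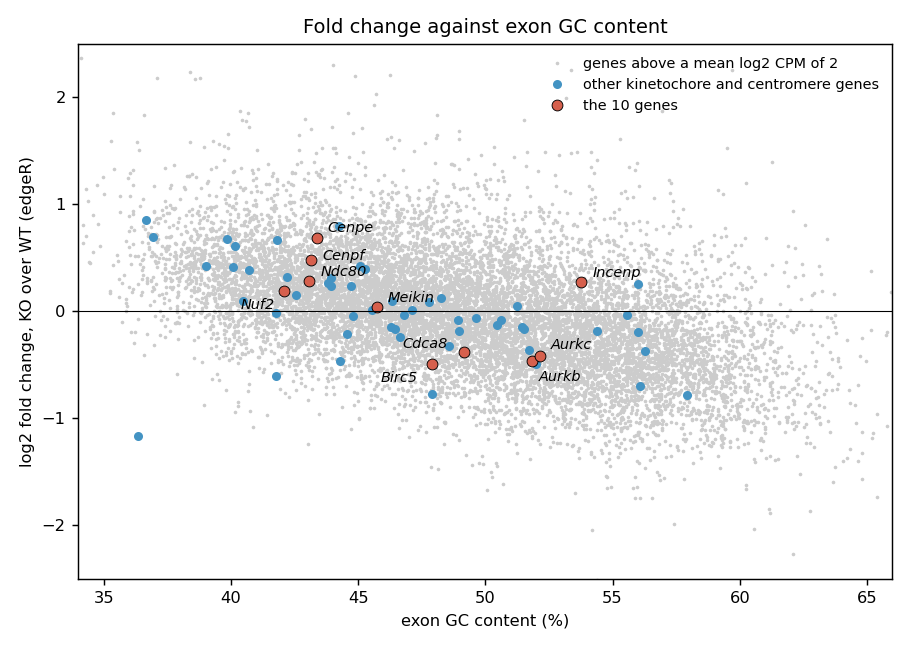
Log2 fold change, KO over WT, by edgeR against exon GC content in percent, for genes with a mean log2 CPM above 2 (grey, of which 57 lie outside the axes), the 10 genes (red, named) and the other kinetochore and centromere genes (blue). Cenpe, Cenpf, Ndc80 and Nuf2 lie at the AT-rich side above 0, and Incenp lies above 0 among GC-rich genes that mostly lie below it.

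Among 52 other genes of the kinetochore, the centromere and the regulation of the passenger complex, all of which were tested, 4 rose and 2 fell (edgeR adjusted p under 0.05), against 3.11% and 5.12% of all genes tested. Their median log2 fold change was -0.026, against -0.0088 over all genes tested. At an unadjusted p under 0.05, 8 of the 52 were higher and 5 lower, against 12.1% and 15% of all genes tested. Once the trends were removed 0 of the 52 were called by edgeR, with 2 higher, against 11.4% of all genes, and 4 lower, against 10.9%, at an unadjusted p under 0.05. DESeq2 without that removal called 5 higher and 2 lower, against 7.17% and 8.19% of all genes. None was called by edgeR when WT sample 1, 2 or 3 or KO sample 1 or 3 was left out. In those 5 fits only 0.00452% to 1.93% of all genes were called. Without KO sample 2, 8 were called, against 14.3% of all genes.

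Of 11 partners of the NDC80 dimer in the KNL1, MIS12 and SKA complexes, 0 rose and 0 fell (edgeR, with 0 and 0 also at an unadjusted p under 0.05). Spc24, which anchors the other end of the NDC80 complex, had 6.17, 5.84 and 7.10 CPM in KO and 10.2, 9.82 and 6.80 CPM in WT, with overlap (log2 fold change -0.49, SE 0.22, edgeR adjusted p = 0.196). Ska2, of the complex that follows microtubule ends, averaged 5.37 ± 0.0124 CPM in KO and 4.04 ± 0.776 CPM in WT (log2 fold change 0.41, SE 0.22, edgeR adjusted p = 0.269). Log2 fold changes in the fit without the trends were -0.28 for Spc24 (edgeR adjusted p = 0.432) and 0.094 for Ska2 (edgeR adjusted p = 0.821).

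Of 15 genes of the constitutive centromere-associated network, the inner layer on which the outer kinetochore is built, 2 rose and 1 fell. The shares of all genes tested were 3.11% and 5.12%. Cenpc1, which encodes the CENP-C protein that binds CENP-A nucleosomes, had 42.3, 39.3 and 40.5 CPM in KO and 26.3, 28.0 and 22.0 CPM in WT (log2 fold change 0.68, SE 0.16, edgeR adjusted p = 0.0351). Cenpq had 21.1, 21.8 and 22.2 CPM in KO and 14.1, 13.0 and 10.2 CPM in WT (0.80, SE 0.18, edgeR adjusted p = 0.0332), and its span overlaps Mut. Cenpw, which encodes a histone-fold subunit, fell to 5.89, 11.5 and 7.20 CPM in KO, against 23.0, 17.2 and 15.1 CPM in WT (-1.17, SE 0.28, edgeR adjusted p = 0.0398). In these 3 genes the groups did not overlap. Nor did they in Cenpk (higher in KO) and Cenpm (lower in KO) of the same list, which were not called. Of all genes tested, 14.6% were higher and 18.1% lower in KO without overlap. In the fit without these trends, log2 fold changes were 0.33 for Cenpc1 (edgeR adjusted p = 0.247), 0.67 for Cenpq (edgeR adjusted p = 0.0752) and -1.76 for Cenpw (edgeR adjusted p = 0.0532). Cenpw has 36.3% GC, and 124 genes of like GC content had a median log2 fold change of 0.52 with a 10th percentile of 0.018.

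Of 10 genes of the corona and of checkpoint recruitment, 0 rose and 0 fell by edgeR, with 1 higher and 0 lower at an unadjusted p under 0.05 and 0 called by DESeq2. Spdl1, the dynein adaptor of the corona, averaged 12.2 ± 1.27 CPM in KO and 9.23 ± 0.260 CPM in WT (0.40, SE 0.18, edgeR adjusted p = 0.182). The checkpoint gene Mad2l1 averaged 18.0 ± 0.519 CPM in KO and 13.8 ± 2.08 CPM in WT (0.38, SE 0.18, edgeR adjusted p = 0.201), or 0.0080 with the trends removed, where Spdl1 had 0.27.

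Of 10 genes that recruit or regulate the passenger complex at centromeres, 1 rose and 1 fell, against 3.11% and 5.12% of all genes. Sgo2a, a protector of centromeric cohesin that also helps to place the complex, had 50.7, 46.6 and 39.1 CPM in KO and 30.3, 28.8 and 30.2 CPM in WT (log2 fold change 0.61, SE 0.16, edgeR adjusted p = 0.0466), and its span overlaps Kctd18. Rcc2, which encodes TD-60, a protein needed for the complex to reach centromeres in human cells, fell to 60.9, 62.0 and 54.6 CPM in KO, against 95.8, 105 and 103 CPM in WT (-0.78, SE 0.14, edgeR adjusted p = 0.0186). In the fit without these trends, log2 fold changes were 0.23 for Sgo2a (edgeR adjusted p = 0.354) and -0.34 for Rcc2 (edgeR adjusted p = 0.27).

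**Figure D5:**
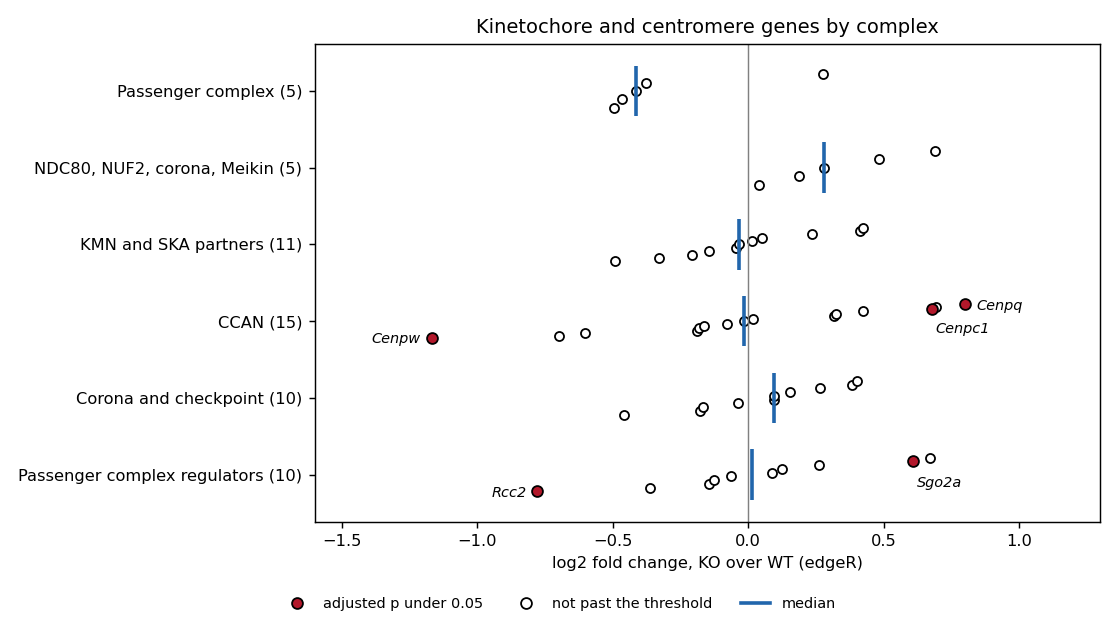
Log2 fold change of each gene, KO over WT, by edgeR, with the genes of each complex on a line of its own and their number in brackets (KMN, the KNL1, MIS12 and NDC80 complexes; CCAN, the constitutive centromere-associated network). Filled points passed an adjusted p of 0.05 and blue bars are medians: 4 of 5 passenger complex genes lie below 0, the 5 other genes of the 10 lie above it, and the 5 called genes drawn are all in other lists. The genes of CENP-A and its loading are not drawn.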

How the data were processed

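RNA of whole testes from 3 KIFC1 knockout and 3 wild-type samples was sequenced. The authors deposited raw counts per Ensembl gene, 1 file per sample, as whole numbers without normalization. Per the submitters' processing notes, Trimmomatic, HISAT2 and HTSeq were used on mm10. Not given in the sources used here: their versions, the annotation release, the strand setting and the treatment of multiply mapped reads. GENCODE M21 (GRCm38, the assembly of mm10) matched 51633 of 51826 identifiers and gave symbols, spans, exon lengths and exon GC content. Samples of a group differed beyond sampling noise, with chi-square per degree of freedom from 15.4 to 135. A count of 3 corresponds to 0.0763 to 0.0986 CPM, for counting error only.

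The main test was edgeR 4.0.16 (R 4.3.3), quasi-likelihood, with TMM and filterByExpr, fitted to all 6 samples without covariates and adjusted over all genes tested. SEs and 95% intervals came from its F statistic. The second fit took offsets from splines (5 degrees of freedom each) of log2 CPM (prior count 2) on GC content and log2 exon length, over the 12761 genes whose mean log2 CPM passed 2. Other alternatives were DESeq2 1.42.0, other scalings and filters, a replicate block, and samples or mitochondrial genes left out. The 10 genes, all lists, and the rule for named genes (all 10 genes, and in each other list the called genes or otherwise the 2 with the smallest p) were chosen with earlier results of these data known. Promoters came from RefSeq, GRCm38.p6. Values of 1 list of the other kinetochore and centromere genes are not reported here, although its genes are in the counts over all 52.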

Additional observations from a re-analysis of the deposited data

How the results depend on the processing

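None of the 10 genes was called by edgeR under any alternative. DESeq2 called 1, Cenpe. Over 16 alternatives, log2 fold changes ran from -0.62 to -0.27 for Aurkb, -0.57 to -0.16 for Aurkc, -0.60 to -0.33 for Birc5, -0.45 to -0.25 for Cdca8, 0.038 to 0.61 for Ndc80, -0.076 to 0.35 for Nuf2, -0.021 to 0.53 for Incenp, 0.43 to 0.90 for Cenpe and 0.16 to 0.75 for Cenpf. Signs turned 7 times in 160: for Incenp without KO samples 1 and 3 (-0.021), for Nuf2 with the GC and length offsets (-0.076) and with these and the replicate block (-0.059), and for Meikin with the offsets (-0.019), with both (-0.019), without WT sample 3 (-0.050, the lowest of a range up to 0.18 with a sample left out) and without KO sample 2 (-0.035). The ratio of Aurkc to Aurkb ran from -0.067 to 0.16 with a sample left out, Ndc80 to Nuf2 from -0.049 to 0.16. The causes were not tested.

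The count of all genes called, 1770, moved to 1010 without an expression filter, 3305 by DESeq2, 18 with the GC and length offsets, 21 with the replicate block, 5 with both, 2 without KO samples 1 and 3, and 1 to 3149 with any sample left out. The 6 other kinetochore and centromere genes called became 3 with library size alone, 1 without a filter, 0 with the offsets, with the replicate block, with both, and without KO samples 1 and 3, and 0 to 8 with a sample left out. Samples that share a number deviated in opposite directions (correlations of -0.47, -0.12 and -0.14 for numbers 1, 2 and 3), and no KO sample correlated best with the WT sample of its number, so that the numbers were not taken as pairs. Aurkb had the lowest count here, 274, and with 3 samples a group the 95% interval of its KO to WT ratio ran from 0.527 to 0.995. More counts did not always go with a smaller SE. The SE of the log2 fold change was 0.20 for Aurkb and 0.23 for Cenpf, which had 2021 to 4690 counts.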
